A study of Drosophila melanogaster with 4 samples.

Results

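Transcripts once cloned from an adult testis cDNA library were compared between Hdac1 mutant and wild type larvae. They are the array targets whose design name is AT followed by 5 digits, the prefix of that library. The name alone decides which targets belong, while the library was picked with earlier results of these data known. Of 25778 non-control targets, 145 carried such a name, read by 166 probes (1 probe for 126 clones, 2 for 17 and 3 for 2). Drosophila melanogaster larvae of the 3rd instar, raised at 25 °C in the Oregon-R background, were compared on 4 arrays. Each array held RNA from larvae of genotype Hdac1[303]/Hdac1[def8], labelled red with Alexa Fluor 647, and RNA from wild type larvae, labelled green with Alexa Fluor 555. The 4 arrays were described as biological replicates. The dyes were never swapped, so an effect of the dye and one of the genotype cannot be told apart. No source used here gives the sex of the larvae. The labels name no dissected tissue, and both alleles are carried by the animal and not driven in chosen cells.

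Hdac1, also called Rpd3, removes acetyl groups from histones and acts in several complexes that repress transcription. The fly testis transcribes an unusually large set of genes. Many of them are switched on in primary spermatocytes by testis-specific transcription complexes, and many are stored as messenger RNA for later use in spermatids. Testes of male larvae at the last instar already hold spermatocytes. A clone's library shows that adult testes held the transcript, not that other tissues lack it.

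Of the clones, 24 could be paired with 1 gene, 1 with several genes and 120 with none. The paired genes lay on arms 2L (3), 2R (10), 3L (4) and 3R (7), and 22 were protein coding and 2 antisense RNAs. The label could not be checked against testis markers, since no probe could be paired with any of the 15 spermatocyte and spermatid marker genes listed for it. The same held for the 12 spermatocyte transcription regulators, the 5 regulators of meiosis and translation, the 10 Y-linked fertility genes and the 8 early germ cell genes. Clones are therefore called by their names.

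Fewer testis clones were detected in the mutant channel than in the wild type channel on each of the 4 arrays. A target counted as detected on an array where its brightest probe was marked well above background by the scanner software (for a probe with several spots, by at least 50% of them). In mutant RNA 104, 104, 100 and 108 of the 145 clones were detected on replicates 1 to 4 (71.7%, 71.7%, 69.0% and 74.5%), against 124, 119, 115 and 125 in wild type RNA (85.5%, 82.1%, 79.3% and 86.2%). The ranges of the channels did not overlap. Among the other 25633 targets the shares were nearly level, at 82.3%, 83.3%, 82.5% and 85.1% in mutant RNA and 83.0%, 83.2%, 82.5% and 84.2% in wild type RNA. In bulk RNA of larvae, fewer cells of a type and less RNA per cell cannot be told apart.

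**Figure D1:**
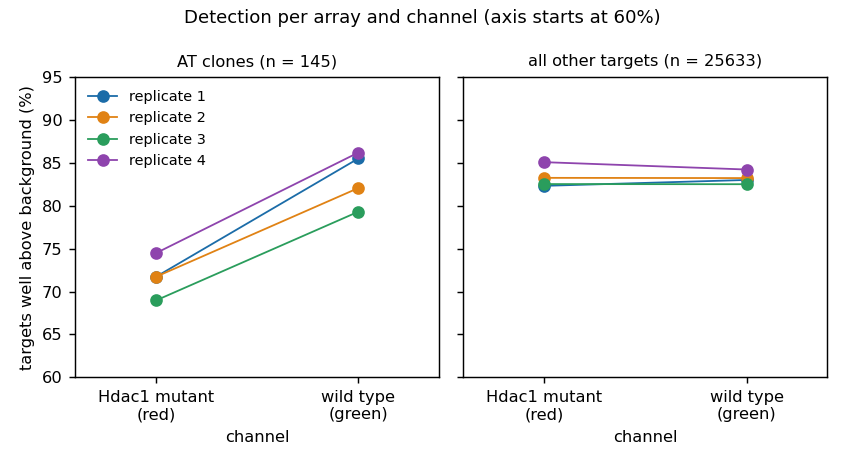
Share of targets well above background (vertical axis, %, starting at 60%) in the Hdac1 mutant and the wild type channel, for the 145 testis clones and for all other targets, with 1 line per array. The clones lie between 69.0% and 74.5% in the mutant channel and between 79.3% and 86.2% in the wild type channel, while the lines of the other targets are nearly flat.

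The clones gave dim signals as a group. Their median net intensity (spot minus local background) was 413, 453, 540 and 719.5 in mutant RNA, where the other targets had medians between 1404 and 1883. In wild type RNA it was 199.5, 122, 218 and 199, where the others had medians between 283 and 468. On a log2 scale with the channels normalized to each other, the clones' median signal was 8.28, 8.37, 8.33 and 8.58 in the mutant and 8.86, 8.72, 8.79 and 8.99 in wild type. That of the other targets ran from 9.66 to 9.72 in the mutant and from 9.77 to 9.82 in wild type. Probes differ in how well they bind, so these medians describe the sets of probes and give no transcript abundance.

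A clone was tested when either channel of its brightest probe was detected on 3 or 4 arrays, which 123 of 145 clones met (84.8%, and 85.1% of the other targets). Of the 22 left out, 9 were detected on no array in either channel, and none was detected on more than 2 arrays in a channel. The log2 ratio of the mutant to the wild type channel was tested against 0 with limma over all 21942 tested targets, with Benjamini-Hochberg adjustment and a threshold of 0.05. Loess normalization centres each array, so a ratio is measured against the transcripts of the array as a whole.

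Of the 123 tested clones, 66 were lower in the mutant (53.7%), 35 were higher (28.5%) and 22 passed the threshold in neither direction. Over all targets 37.5% were lower and 38.1% higher. Of the 66 lower clones 24 (36.4%) met the filter on detection through the wild type channel alone, as did 7.27% of the other targets that were lower. Of the 35 higher clones 6 (17.1%) met it through the mutant channel alone, as did 7.68% of the other targets that were higher. Entry in this way favours a dimmer signal in the other channel, so the counts describe the clones and support no statement beyond that. At least 2-fold, 34 clones were lower (27.6%, against 16.3% of all targets) and 9 higher (7.32%, against 11.0%). Of these 34, AT01380, AT01413, AT08919, AT07608, AT11933, AT17684 and AT23338 met the filter through the wild type channel alone. The 9 higher clones were detected in both channels on all 4 arrays. At least 4-fold, 10 were lower (8.13%, against 4.87%) and 2 higher (1.63%, against 1.59%). The 4 clones at least 8-fold lower made up 3.25%, where 1.49% of all targets fell as far. None of the 123 was 8-fold higher (0, against 0.264% of all targets). With replicate 1, 2, 3 or 4 left out, 64, 62, 61 and 66 clones were lower (against 36.0%, 35.0%, 35.0% and 35.7% of all targets). In the same fits 34, 29, 31 and 31 were higher (against 36.7%, 35.1%, 34.5% and 35.6%).

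The split of calls depends on the centring. A shift taken from the array's spike-in control probes raised the ratios by 0.90 and gave 22 clones lower (against 12.0% of all targets) and 70 higher (against 71.8%). The labels do not describe how control RNAs were added, and the scanner software marked the fit to them as out of range on 4 of 4 arrays, with correlations of 0.709 to 0.831 between measured and expected ratios. The shift is also shared by all targets on an array, and limma then gave every target the same spread (an infinite prior df, against 6.57 without the shift). The calls under this shift are therefore not on the footing of the others, and the position of a clone relative to the other targets is the same with and without it.

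The median log2 ratio of the tested clones was -0.37, and that of all other tested targets 0.02. On replicates 1 to 4 the clones had medians of -0.35, -0.35, -0.35 and -0.39, and the other targets 0.00, 0.01, 0.02 and 0.05. The difference of the medians was -0.38 ± 0.04 (mean and SD over 4 arrays) and lay below 0 on each. Where each array was centred on its median and not by loess, the clones' median was -0.56, and with the ratios written by the scanner it was -0.52. With the spike-in shift it was 0.53, below the 0.92 of the other targets. No test of the group was made, and the values describe these probes.

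**Figure D2:**
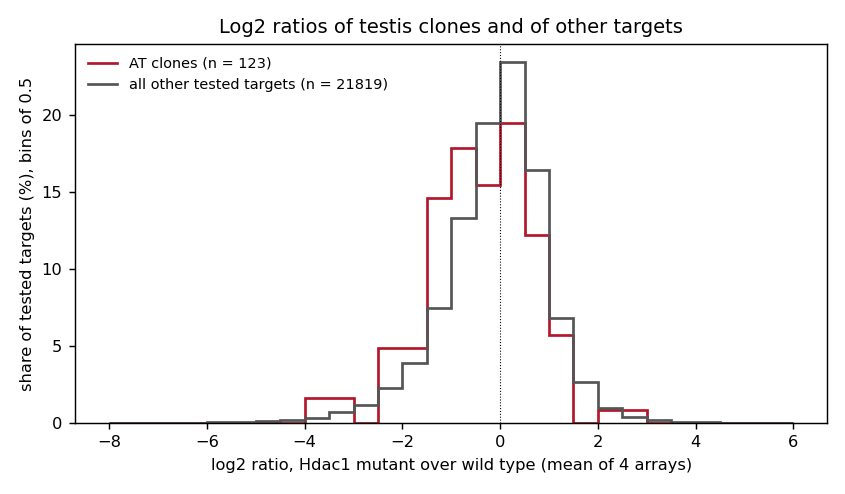
Distribution of the mean log2 ratio of Hdac1 mutant over wild type (horizontal axis, bins of 0.5) as a share of tested targets (vertical axis, %), for the 123 tested testis clones in red and all other 21819 tested targets in grey. The clones have a median of -0.37 and their outline lies above that of the others between -2 and -0.5 and below it from -0.5 to 2.

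Single clones varied widely around that median. Of the clones 10% lay below -1.76 and 10% above 0.80, with -3.85 and 2.70 at the ends. The ratio kept its sign on 4 of 4 arrays for 106 clones (86.2%, against 80.9% of all targets). Normalized signals of the channels did not overlap over the arrays for 59 clones that were lower in the mutant and 25 that were higher (31.0% of all targets each way). The SD of a clone's ratio over the arrays had a median of 0.24 and ran from 0.02 to 0.67, against a median of 0.22 for other targets. Across clones, the ratios on any pair of arrays had Pearson's r from 0.922 to 0.967, and clones are not independent replicates.

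All tested targets were ordered by mean signal and cut into 4 equal groups. Of the 123 clones 54 fell in the dimmest group, 32 in the next, 23 in the next and 14 in the brightest. In the dimmest group 36 clones passed as lower (66.7%) and 10 as higher (18.5%), where 32.7% of the other targets were lower and 37.9% higher. The 24 lower and 6 higher clones that met the filter through 1 channel alone all lay in this group, and their direction is largely set by that. In the second group 13 passed as lower (40.6%) and 10 as higher (31.3%), near the 38.1% and 38.2% of the other targets there. In the third 10 passed as lower (43.5%) and 9 as higher (39.1%), against 39.6% and 38.2%. In the brightest group, which held 14 clones only, 7 passed as lower (50%) and 6 as higher (42.9%), against 39.0% and 38.2%. From the second group to the brightest, where no clone entered through 1 channel alone, the clones' median ratios were 0.03, -0.21 and -0.22, against 0.02, -0.02 and -0.0023 for other targets. At least 2-fold falls there numbered 8, 8 and 5 clones (25.0%, 34.8% and 35.7%), against 18.0%, 18.6% and 16.01% of other targets.

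**Figure D3:**
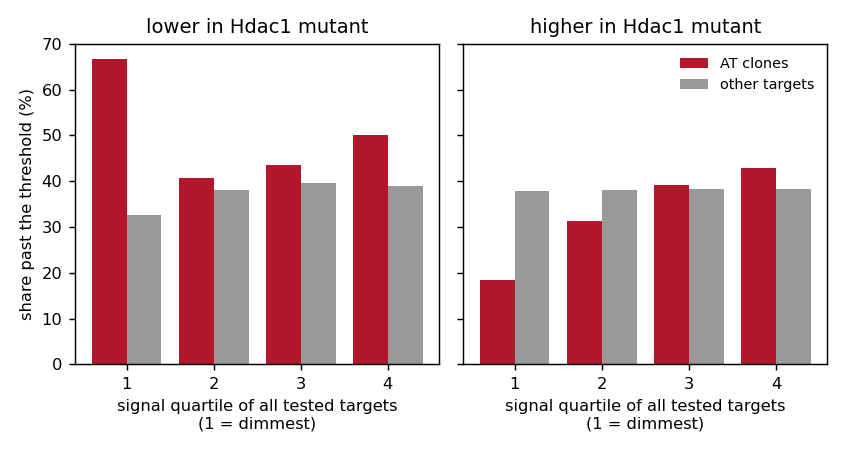
Share of tested targets past the threshold as lower (left) or higher (right) in Hdac1 mutant larvae, in %, by group of mean signal from the dimmest (1) to the brightest (4), for testis clones in red and other targets in grey. In the dimmest group 66.7% of the clones were lower, against 32.7% of the other targets, and 24 of those 36 clones met the filter on detection through the wild type channel alone.

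The clones detected in both channels on all 4 arrays numbered 91 of 145 (62.8%, against 77.1% of other targets). Tested among such targets alone, 41 of these clones were lower (45.1%) and 29 higher (31.9%), where 37.4% and 37.9% of all such targets were. Their median ratio was -0.14, against 0.02 for other targets of that kind. This filter asks for detection in both channels and so removes dim clones that were lower or higher in the mutant. It kept the 10 clones that were at least 4-fold lower. Left out by it were 23 clones detected on 4 wild type arrays and on 0 to 3 mutant arrays, all 23 of them lower. Also left out were 5 clones detected on 4 mutant arrays and on 0 to 3 wild type arrays, 4 of them higher. The median of -0.37 over all tested clones includes 24 lower clones that entered through the wild type channel alone. Both medians thus depend on the filter.

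Clones from other libraries were set beside them. Of 60 tested ovary clones (prefix GM) 25 passed as lower (41.7%) and 18 as higher (30%), and their median was -0.07. Of 214 embryo clones (LD and RE) 65 passed as lower (30.4%) and 104 as higher (48.6%), around a median of 0.24. Of 36 larva and pupa clones (LP) 13 passed as lower (36.1%) and 16 as higher (44.4%), around a median of 0.01. Over all targets 37.5% were lower and 38.1% higher. Among clones detected in both channels on all 4 arrays, the ovary median was -0.13, close to the -0.14 of the testis clones. The embryo median was then 0.24 and that of larva and pupa clones 0.01. None of the 68 ovary and 40 larva and pupa clones on the array was detected on 4 arrays in wild type and on none in the mutant, and 1 of 232 embryo clones was. Whether the testis clones differ from these groups was not tested.

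The largest falls belonged to 4 clones without a gene name here. AT25722 had log2 signals of 8.25, 7.54, 7.80 and 7.74 in mutant RNA, against 11.67, 12.07, 11.27 and 11.74 in wild type RNA on replicates 1 to 4. All mutant values lay far below all wild type values, and the clone fell by 3.85 ± 0.52 on the log2 scale, 14.5-fold (SD, n = 4, limma adjusted p = 9.9e-08). A second, dimmer probe of the clone gave -0.22 ± 0.10, and the mean over both probes was -2.04, so the size of the fall depends on the probe. AT03160 stood at 9.47, 8.90, 9.13 and 9.18 in the mutant, against 13.03, 13.44, 12.41 and 12.86 in wild type, without overlap. It fell by 3.77 ± 0.55, 13.6-fold (SD, n = 4, limma adjusted p = 1.4e-07). Its other 2 probes were not detected on more than 1 array and did not bear on the value.

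AT28040, with 1 probe, had signals of 9.82, 9.60, 10.10 and 9.78 in mutant RNA and 13.31, 13.57, 12.78 and 13.35 in wild type RNA. It fell by 3.43 ± 0.54, 10.8-fold (SD, n = 4, limma adjusted p = 2.2e-07). AT24185 had 10.15, 9.63, 9.49 and 9.34 in the mutant and 13.49, 13.00, 12.71 and 12.88 in wild type. It fell by 3.37 ± 0.13, 10.3-fold, with the smallest SD of these 4 clones (n = 4, limma adjusted p = 1.4e-08). For both the channels were separated on every array.

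The next 6 clones lay 4.06-fold to 5.62-fold lower, and each had 1 probe, detected in both channels on all 4 arrays. AT30951 had ratios of -2.26, -2.26, -2.46 and -2.99, with a mean of -2.49 ± 0.34 (SD, n = 4). AT14585 had -2.01, -2.23, -2.11 and -2.61, and AT08601 had -2.16, -2.25, -1.87 and -2.23. AT26009 had -2.01, -1.81, -1.90 and -2.57, and AT20942 had -1.71, -2.05, -1.96 and -2.48. Replicate 4 was the lowest array for AT30951, AT14585, AT26009 and AT20942. AT22983, the brightest of the 6, had -2.24, -2.09, -1.84 and -1.91. The adjusted p of these 6 in limma ran from 1.9e-07 to 7.4e-07. The direction and call of these 10 clones were the same under every setting tried, the spike-in shift included.

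Rises were smaller, with 2 clones apart from the rest. AT25373 had log2 signals of 16.32, 16.05, 16.04 and 15.95 in mutant RNA, against 13.62, 13.14, 14.24 and 12.54 in wild type RNA. It was among the brightest clones in the mutant, and its wild type signal varied more between arrays than its mutant signal. The clone rose by 2.70 ± 0.67, 6.51-fold (SD, n = 4, limma adjusted p = 2.2e-06), and by 3.45 with median centring. AT02348 had 14.72, 14.79, 14.46 and 14.45 in the mutant, against 12.45, 12.55, 12.69 and 11.83 in wild type, without overlap. It rose by 2.23 ± 0.35, 4.68-fold (limma adjusted p = 5.1e-07).

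The other 8 of the 10 largest rises lay between 1.97-fold and 2.66-fold. AT09917 had ratios of 1.29, 1.47, 1.30 and 1.58, and AT15050 had 1.20, 1.67, 1.12 and 1.43. AT27450, paired with wuc (wake-up-call), had 1.33, 1.45, 1.03 and 1.59. The wuc gene encodes a relative of Lin-52 known from work on the control of testis-specific transcription. AT23078, paired with CG8204, had 1.29, 1.14, 1.55 and 0.98, and AT12770 had 1.17, 0.84, 1.18 and 1.36. AT05157 had 1.19, 1.28, 0.85 and 1.08, with 2.01 as its mean by the scanner's ratio. AT11120, paired with CG31870, had 1.18, 1.38, 0.71 and 0.99, and AT07234 had 0.89, 1.19, 0.81 and 1.04. Every array of these 8 clones lay above 0, and their adjusted p in limma ran from 1.5e-06 to 3.4e-05.

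**Figure D4:**
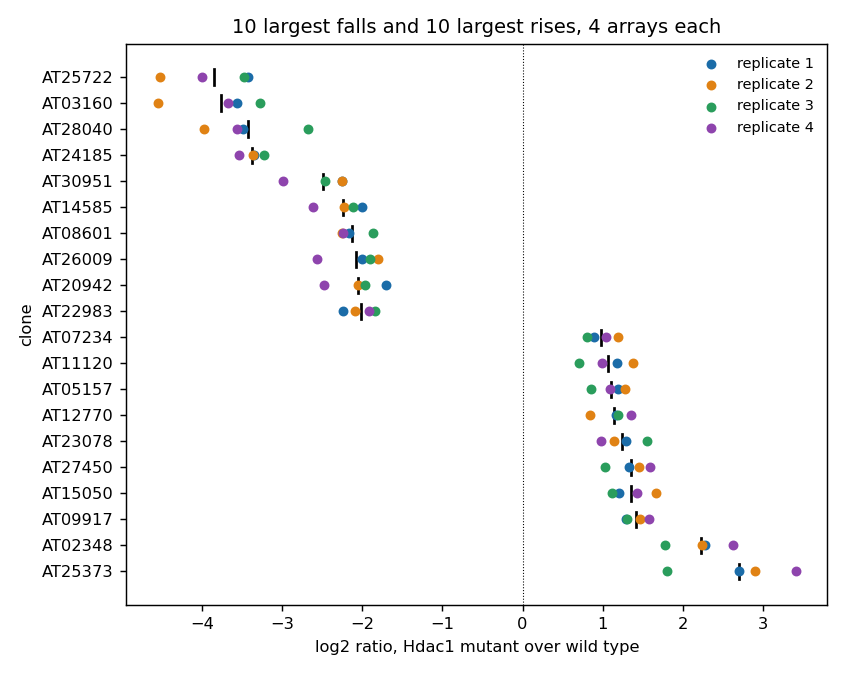
Log2 ratio of Hdac1 mutant over wild type (horizontal axis) on each of 4 arrays, as dots coloured by replicate, with the mean as a black bar, for the 10 testis clones with the largest falls and the 10 with the largest rises (vertical axis). All dots of the falls lie at or below -1.71 and all dots of the rises at or above 0.71.

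Some clones were seen in 1 channel only. Detected on 4 of 4 arrays in wild type and on none in the mutant were 12 clones (8.28% of 145), against 1.05% of other targets. The opposite pattern, all arrays in the mutant and none in wild type, was shown by 3 clones (2.07%, against 0.932%). This choice by detection largely sets the direction of their ratios, so their calls are no further evidence. For such a clone the fold is approximate, computed per channel after loess and Aquantile normalization and open to dye bias. In the channel at background, a signal below the lowest detected one of that array and channel was raised to it. For most of these clones this left the fold at its measured value, so it is no strict lower limit.

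Of the 12 clones seen in wild type alone, AT01380 was about 3.37-fold lower in the mutant, with ratios of -1.49, -0.97, -2.06 and -2.50. AT01413 was about 2.62-fold lower, AT08919 2.34-fold, AT07608 2.33-fold, AT17684 2.07-fold and AT23338, paired with CG15605, 2.04-fold. The folds of AT07779, AT13125, AT29354 and AT09966 were 1.93-fold, 1.89-fold, 1.85-fold and 1.60-fold, and those of AT28101 and AT28259 1.32-fold and 1.29-fold. The scanner's ratio gave larger falls for these 12 clones, from -1.44 for AT28259 to -3.48 for AT01380, and median centring moved 10 of them by over 1.5 times. With the spike-in shift the calls of AT08919, AT07608, AT17684, AT23338, AT07779 and AT13125 were lost, and AT29354, AT09966, AT28101 and AT28259 turned to ratios above 0.

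The 3 clones seen in the mutant alone were AT07326, about 1.75-fold higher, AT05393, about 1.59-fold, and AT28881, about 1.57-fold. Their calls were lost with median centring, where the ratios were 0.35, 0.07 and -0.0071. The scanner's ratio gave 1.78, 1.85 and 2.22. For 4 more clones detected in 1 channel on 3 arrays and in the other on none, the approximate folds were 1.66-fold (AT25468) and 1.36-fold (AT11167) lower, and 1.41-fold (AT21495) and 1.60-fold (AT04666) higher in the mutant.

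Of the 24 clones paired with 1 gene, 18 could be tested, of which 9 were lower, 6 higher and 3 past the threshold in neither direction. Over all targets 37.5% were lower and 38.1% higher. Of the 9 lower clones AT23338, AT28563 and AT29351 met the filter on detection through the wild type channel alone, which favours a lower ratio. The 6 higher clones were detected in both channels on all 4 arrays. The counts therefore describe the clones only. These 18 include wuc, CG8204, CG31870 and CG15605, described above. AT21341, paired with CG32148, showed the largest fall, with ratios of -2.29, -1.99, -2.08 and -1.62 and a 3.98-fold lower mean (limma adjusted p = 5.4e-07). AT13807 (CG13526) had -1.37, -1.40, -1.52 and -1.72, and AT30660 (CG31093) had -1.13, -1.40, -1.53 and -1.81. The scanner's ratio put both lower, at -2.28 and -2.27.

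The paired genes include those of 2 subunits of the vacuolar proton pump. AT03238, paired with Vha100-3, which encodes a form of the membrane-bound a subunit, had ratios of -1.61, -1.04, -1.39 and -1.70. It fell by 1.44 ± 0.29, 2.71-fold (SD, n = 4, limma adjusted p = 4.8e-06). AT14009, paired with Vha13, which encodes the G subunit of the pump's soluble part, had ratios of 0.90, 0.62, 0.22 and 0.36. It rose by 0.53 ± 0.30, 1.44-fold (limma adjusted p = 0.0038), and by 1.28 with median centring.

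Smaller falls were measured for 4 further paired clones. AT30262 (CG3748) had -0.95, -0.45, -1.69 and -1.57, the widest spread among the paired clones, and its call was lost with the spike-in shift (-0.27). AT28563 is paired, by its name alone, with RpS29, which encodes a protein of the small ribosomal subunit. Its net intensities in wild type RNA were 96, 60, 98.5 and 112.5, where the other targets had medians between 283 and 468. Whether its probe reads the RpS29 transcript was not tested. The ratios of AT28563 were -0.54, -0.57, -0.65 and -1.21, and it was detected in the mutant on 1 of 4 arrays. AT02774 (CG11333) had -0.66, -0.44, -0.69 and -1.15. By the scanner's ratio AT28563 was at -1.66 and AT02774 at -1.43, and with the spike-in shift at 0.15 and 0.16. AT29351 (CG13474), at -0.24 ± 0.07 (SD, n = 4, limma adjusted p = 0.045), lost its call without replicate 1, 2 or 3, was -0.91 by the scanner's ratio, and turned to 0.65 with the spike-in shift. It was detected in the mutant on 1 of 4 arrays. Like AT28563, it met the filter on detection through the wild type channel alone. Entry in this way favours a lower ratio, so the calls of AT28563 and AT29351 are no further evidence.

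The smaller rises among paired clones were AT25108 and AT22714. AT25108 is paired, by its name alone, with Ten-m, a gene for a teneurin cell surface protein. The ratios of AT25108 were 0.04, 0.32, 0.32 and 0.53, with a mean of 0.30 ± 0.20 (SD, n = 4, limma adjusted p = 0.030). It was among the brightest clones, with net intensities from 109738 to 138534 in mutant RNA, and whether its probe reads Ten-m was not tested. Its call was lost without replicate 2, 3 or 4, and median centring gave 1.14. AT22714 (CG30284) had 0.11, 0.27, 0.46 and 0.72, and its call was lost without replicate 4. Past the threshold in neither direction were AT07490 (CG9133) at 0.10 ± 0.25, AT03788 (CG33655) at 0.14 ± 0.38 and AT15479 (CG31542) at 0.25 ± 0.25. AT15479 passed the threshold without replicate 1 (0.36) and with the scanner's ratio (0.49).

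The 6 paired clones that could not be tested were AT28817 (puf, a gene for a ubiquitin-specific protease), AT08574 (Drep3, of a family related to DNA fragmentation factors), AT21895 (CG33140), AT02643 (CG31867) and the antisense RNAs asRNA:CR30267 (AT28638) and asRNA:CR31429 (AT27571). None of the 6 was detected in the mutant on any array. In wild type AT21895 and AT02643 were detected on 2 arrays and AT08574 on 1.

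**Figure D5:**
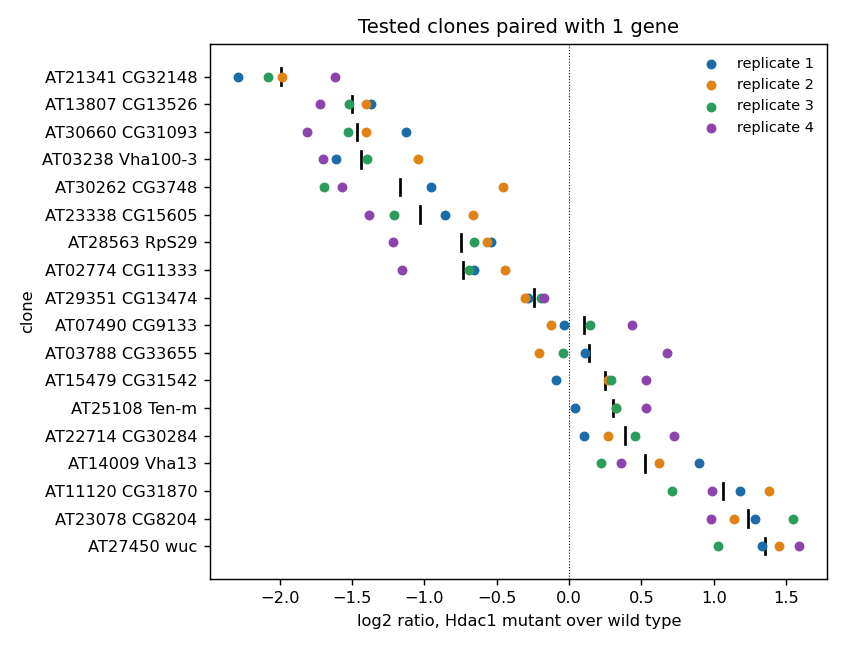
Log2 ratio of Hdac1 mutant over wild type (horizontal axis) on each of 4 arrays, as dots coloured by replicate, with the mean as a black bar, for the 18 tested testis clones that were paired with 1 gene (vertical axis, clone and gene symbol). From CG32148 to CG13474 9 clones were lower and from Ten-m to wuc 6 were higher, with 3 between them past the threshold in neither direction.

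Probes of the same clone did not always give the same ratio. Of 19 clones with several probes, 12 had at least 2 probes past the filter on detection. Between the highest and the lowest probe of a clone the median gap was 0.46 on the log2 scale. The gap was over 1 for 3 clones, AT25722, AT14971 and AT19369. The probes of AT19369 both showed a fall, of -1.23 ± 0.10 at the brighter probe and -3.32 ± 0.31 at the dimmer one (SD, n = 4). The signs differed for 2 clones. AT14971 gave 0.10 ± 0.09 at the brighter probe and -1.02 ± 0.20 at the dimmer one, and the mean over both passed the threshold as lower (-0.46, limma adjusted p = 0.0021). AT28206 gave 0.16 ± 0.36 and -0.24 ± 0.14, with a mean of -0.037 that did not pass, and its brighter probe passed as higher with median centring (0.54). Each value in the counts above rests on the brightest probe of its clone.

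The transcripts known from male flies that could be paired outside the library, roX2, roX1 and CG40635, were lower in the same larvae. Of all tested targets 37.5% were lower, and 16.3% were at least 2-fold lower. The RNA roX2, of the complex that raises X-linked transcription in males, had ratios of -1.38, -2.43, -2.24 and -2.70 at 1 of its targets, a mean of -2.19 ± 0.57 (SD, n = 4, limma adjusted p = 4.1e-06), and averaged -1.17 ± 0.32 at the other. Its partner roX1 had -0.33, -0.996, -0.50 and -0.71 at 1 target, a mean of -0.63 ± 0.29, and averaged -0.49 ± 0.43 at the other, where replicate 1 lay at 0.11. CG40635, a gene of the Y chromosome in the gene table used, had -1.43, -2.31, -1.36 and -2.09 (limma adjusted p = 6.1e-06). Of the 7 dosage compensation genes listed the 2 roX RNAs could be paired, and of the 32 names listed as spermatid genes CG40635 alone. CG40635 is known here only by its place on the Y chromosome. Whether these transcripts have any link with the lower testis clones was not tested. Of the 5 somatic testis genes only eya could be paired. It is also a gene of the imaginal discs and averaged -0.47 ± 0.14 (SD, n = 4). The eya target was detected in the mutant on no array and in wild type on 3 of 4. It met the filter on detection through the wild type channel alone, which largely sets its direction, so its call is no further evidence. Of markers for other tissues, none of 6 fat body genes could be paired. Among the paired ones the gut gene LysE averaged 2.51 ± 0.47, the muscle gene Mef2 0.01 ± 0.10, the neuronal genes cac and Sh -0.12 ± 0.06 and -0.30 ± 0.23, and ptc, the disc gene paired beside eya, 0.15 ± 0.20 (SD, n = 4).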

How the data were processed

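Levels of RNA were measured on 4 2-colour arrays of 1 slide and 1 scan. Spot reading used Feature Extraction 10.5.1.1, per the file headers. The deposited intensity values are median pixel intensities of each spot and of its local background. The files also hold a deposited log10 ratio (red to green), which the scanner software made from background-subtracted, dye-normalized signals. The submitters' table held the same ratios on every spot, within 1e-06. Labelling started from 15 µg of total RNA and an oligo-dT primer, per the labels' protocols.

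Intensities were background-corrected (normexp, offset 50), normalized by loess and tested with limma 3.58.1 in R 4.3.3. Control spots had weight 0 in the loess and were left out, as were the 27 to 83 non-uniform spots per array (0 of the 175 spots of testis clones). No spot was saturated (0). Repeated spots of a probe were averaged, and the brightest probe stood for a target. The median spot had an intensity of 1490 to 1970.5 in mutant RNA and of 316 to 504.25 in wild type RNA. The number of arrays and the signal over background limit the precision. Clones were paired with genes through the synonyms of a RefSeq gene table of Release 6, and their sequences were not used here. Named clones are the 10 largest falls and rises, those paired with a gene, those seen in 1 channel and those whose probes disagree. The members and lists were chosen with earlier results of these data known.

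Alternatives were the scanner's ratio, median centring, other background corrections, other filters on detection, the mean over probes and each replicate left out. The spike-in shift was chosen after the data were seen, and it subtracts the intercept that each file header gives for the spike-in fit. The fit was tested on simulated ratios for 21942 targets. Simulated shifts of 0.5 (67 targets), 1 (67 targets) and 2 (66 targets) on the log2 scale were recovered in 4.48%, 67.2% and 95.5% of cases, and false calls made up 4.31%. All other simulated targets had no shift, whereas 37.5% of the real targets passed as lower and 38.1% as higher. The adjusted threshold was thus stricter in the simulation, and its shares do not carry over to the real calls.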

Additional observations from a re-analysis of the deposited data

Results flagged for a closer look

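One value stood apart from the others of its clone by the size of the gap between arrays. AT28563, paired with RpS29 by its name alone, had a log2 ratio of -1.21 on replicate 4, with the other 3 arrays from -0.65 to -0.54. Of 51 clones examined this was 1, where chance alone flags about 1 in 20.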

How the results depend on the processing

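The count of lower testis clones was 66 and that of higher ones 35. With 1 replicate left out they ran from 61 to 66 and from 29 to 34, the median ratio from -0.38 to -0.33 and its difference from other targets from -0.41 to -0.35. Among targets detected on all 4 arrays in both channels 41 clones were lower, with a median of -0.14 and a difference of -0.16. The median and the difference were -0.52 and -0.62 by the scanner's ratio, -0.56 and -0.69 after median centring, -0.49 and -0.51 without background correction, -0.50 and -0.52 with an offset of 0, and -0.22 and -0.25 without a filter on dim probes. The mean over all probes gave a median of -0.40. With the spike-in shift 70 clones were higher and 22 lower, around a median of 0.53, and the difference is the same by construction. The median over all targets shifted by 0.11 after median centring and by 0.90 with the spike-in shift. Of 51 named clones 40 kept their call under all 11 planned settings that gave them a value. Reversed values were AT03788 at -0.038 and AT28881 at -0.0071 with median centring, AT14971 at -0.46 and AT28206 at -0.037 with the mean over all probes. With 1 replicate left out AT07490 ran from -0.0071 (without replicate 4) to 0.18 and AT03788 from -0.045 (without replicate 4) to 0.25. With the spike-in shift they were AT28563 at 0.15, AT02774 at 0.16, AT29351 at 0.65, AT29354 at 0.0053, AT09966 at 0.21, AT28101 at 0.50 and AT28259 at 0.53. The causes were not tested. Mutant and wild type RNA were paired on each array, and the test of the log2 ratio against 0 used that pairing. There was 1 group of arrays. Dim probes limit the folds, since those of clones seen in 1 channel are approximate.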

Other observations

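Chosen after its values were seen, AT05170 had nearly the same values as AT25108, the clone paired with Ten-m. Its ratios were 0.09, 0.27, 0.23 and 0.50, those of AT25108 0.04, 0.32, 0.32 and 0.53. The net intensities of AT05170 in mutant RNA were 110545, 125224, 124631 and 115687, and those of AT25108 109738, 130578, 138534 and 118726. In wild type RNA AT05170 had 17788, 13242, 17730 and 10157, and AT25108 had 18231, 13246, 18276 and 10199. Whether the probes read the same transcript, or whether either reads that of Ten-m, was not tested.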
